A study of Homo sapiens with 12 samples.

Results

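The genes described here are 9 chemokine genes, IL8, CXCL1, CXCL2, CXCL3, CXCL10, CXCL11, CX3CL1, CCL2 and CCL20, out of 33093 genes in the table of read counts. They were taken by name, as a family of secreted attractants for immune cells. The other 39 chemokine ligand genes of the table served for comparison. The 12 sequenced samples came from HEK293T cells, a human line of embryonic kidney origin, with 3 independently generated samples in each of 4 groups. WT cells and NFKB1 S80A cells were left untreated or were given 10 ng/ml TNFα for 3 h. In the NFKB1 S80A cells the codon for serine 80 of the NFKB1 gene, which encodes the p105 precursor of NF-κB p50, had been changed to alanine by CRISPR/Cas9 in HEK293T cells, so that p50 lacks a serine that the kinase IKKβ can phosphorylate. These cells were grown from single cells after serial dilution, and the number of clones behind the sequenced RNA is not given in the sources used here. A difference between the genotypes therefore cannot be told apart from a difference between clones.

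Chemokines bind receptors of the G protein-coupled class and draw leukocytes along a gradient. IL8, CXCL1, CXCL2 and CXCL3 act mainly on neutrophils through CXCR1 and CXCR2, CXCL10 and CXCL11 attract activated T cells through CXCR3, CCL2 attracts monocytes, CCL20 attracts cells with CCR6, and CX3CL1 is made as a membrane-bound molecule that also tethers cells. TNFα, bound by its receptor, activates the IKK complex, which marks the inhibitor IκBα for degradation and frees NF-κB dimers, such as p50 with RelA, to bind κB motifs in the promoters of many chemokine genes.

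The libraries held 15624878 to 20889577 reads assigned to genes. The edited gene, NFKB1, was counted in every sample, at 863 to 1091 normalised counts in untreated and 2298 to 3198 in treated samples, and read counts per gene do not show the edited codon. All 6 fixed markers of a HEK293T-like cell were detected in all groups, but the neurofilament gene NEFM averaged 1838 and 2082 normalised counts in untreated and treated WT cells and 4.49 and 3.87 in NFKB1 S80A cells. The leukocyte markers PTPRC and CD3E were at 0 in all 12 samples. The 3 endothelial genes together stayed at or under 3.11 normalised counts in a sample. The 3 fibroblast genes, led by the collagen gene COL1A1, summed to 272 to 311 normalised counts in WT samples and 116 to 152 in NFKB1 S80A samples. This difference ran with genotype, and its part in the chemokine values was not tested. In bulk RNA, more cells with a transcript and more transcript per cell cannot be told apart. A normalised count here is the raw count divided by the library size after TMM scaling, relative to the mean library.

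The 6 members of the CXC class, with IL8 also known as CXCL8, lie on chromosome 4 in GRCh38. IL8 lies at 73740519 to 73743716 on the plus strand, CXCL1 at 73869393 to 73871308 on the plus strand, CXCL3 at 74036589 to 74038807 on the minus strand and CXCL2 at 74097040 to 74099196 on the minus strand, together a stretch of 358.68 kb. CXCL10, at 76021118 to 76023497, and CXCL11, at 76033682 to 76041415, form a second group on the minus strand, 1922 kb beyond CXCL2 and 10.2 kb from each other. The other 3 members each lie on a chromosome without another member. They are CCL20 on chromosome 2 (227805739 to 227817564, plus strand), CX3CL1 on chromosome 16 (57372477 to 57385044, plus strand) and CCL2 on chromosome 17 (34255274 to 34257208, plus strand). Other chemokine ligand genes of the table lie near CX3CL1 and near CCL2.

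The promoter sequences are shown first because κB motifs are the part of these genes that NF-κB p50 dimers bind. RefSeq promoter entries (GRCh38.p14, 250 bases before to 50 after the transcript start) were found for 7 of the 9 members, all but CX3CL1 and CCL2. The stretches below run 5′ to 3′ on the strand of the gene from 12 bases before the first match up to the base before the start. Capitals mark bases that match the 10-base κB consensus, the relaxed κB consensus or the 9-base motif GGNNTTTCC on either strand, with overlapping matches joined. The RefSeq start lies inside the GENCODE gene for IL8, CXCL2 (by 1 base), CXCL3, CXCL11 and CCL20, so other annotated starts lie farther upstream. The 4 genes of the IL8 to CXCL2 stretch come first, IL8 at chr4:73740466-73740568 (plus strand), CXCL1 at chr4:73869302-73869392 (plus strand), CXCL2 at chr4:74099196-74099285 (minus strand) and CXCL3 at chr4:74038690-74038780 (minus strand).
IL8: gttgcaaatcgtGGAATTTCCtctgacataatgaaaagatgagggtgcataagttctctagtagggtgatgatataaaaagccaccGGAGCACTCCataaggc
CXCL1: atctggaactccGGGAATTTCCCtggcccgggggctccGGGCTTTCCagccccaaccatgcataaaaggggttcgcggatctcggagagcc
CXCL2: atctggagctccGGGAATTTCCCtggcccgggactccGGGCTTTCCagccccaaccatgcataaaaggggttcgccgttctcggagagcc
CXCL3: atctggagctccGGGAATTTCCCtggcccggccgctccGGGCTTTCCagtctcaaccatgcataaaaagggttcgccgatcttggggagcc

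CXCL1, CXCL2 and CXCL3 carried the same κB match, GGGAATTTCC, 78 or 79 bases before the start, and the same second 9-base match, GGGCTTTCC, 45 to 53 bases before it. Their 300-base promoter entries were 71.9% to 82.5% identical to each other when aligned, while the other 18 pairs of members reached 44.3% to 54.7%. IL8 had no match to the 10-base κB consensus in this window. It had the 9-base match GGAATTTCC from −91 to −83 and a relaxed match from −17 to −8.

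CXCL10 and CXCL11 are printed side by side because they share a κB match, while CXCL10 reached 117 reads in a sample and CXCL11 had at most 1. They lie at chr4:76023498-76023686 (CXCL10) and chr4:76036071-76036158 (CXCL11), both on the minus strand.
CXCL10: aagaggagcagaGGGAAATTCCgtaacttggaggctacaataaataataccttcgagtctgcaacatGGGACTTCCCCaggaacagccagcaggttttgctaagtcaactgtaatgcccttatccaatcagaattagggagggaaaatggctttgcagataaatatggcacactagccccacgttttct
CXCL11: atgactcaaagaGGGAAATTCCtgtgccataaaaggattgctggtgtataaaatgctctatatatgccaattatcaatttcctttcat

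Both held the match GGGAAATTCC, at −177 to −168 in CXCL10 and at −76 to −67 in CXCL11, and CXCL10 held a further κB match, GGGACTTCCC, at −122 to −113. In the promoter entry of CCL20 the κB match lay on the opposite strand at −79 to −70 and read GGGGTTTTCC. The study numbers the fourth and the fifth base of a κB site −2 and −1. Both were A in the 10-base matches of CXCL1, CXCL2, CXCL3 and CXCL11 and in the farther match of CXCL10, while the nearer match of CXCL10 had A and C and that of CCL20 had G and T. Only matches to the 10-base κB consensus were read this way, so IL8 is not covered. In its 9-base match GGAATTTCC the letters NN of GGNNTTTCC read AA. In the second 9-base match of CXCL1, CXCL2 and CXCL3, GGGCTTTCC, they read GC. On both strands the κB consensus matched 6 of the 7 members with an entry and 5.91% of all 35116 promoters of this length. The relaxed κB consensus matched all 7 and 17.4% of promoters, and GGNNTTTCC matched all 7 and 6.26% of promoters; the 3 patterns overlap each other in most of these places. The AP-1 motif TGANTCA (7.71% of promoters) was found in IL8 and CXCL11, the C/EBP motif TTGCNNAA (10.5%) in CXCL2, the ISRE motif of interferon-stimulated genes (3.57%) in CXCL10, and TATAAA (11.5%) in IL8, CXCL11 and CCL20. These are matches of letters in a short window and not measured binding sites.

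**Figure D1:**
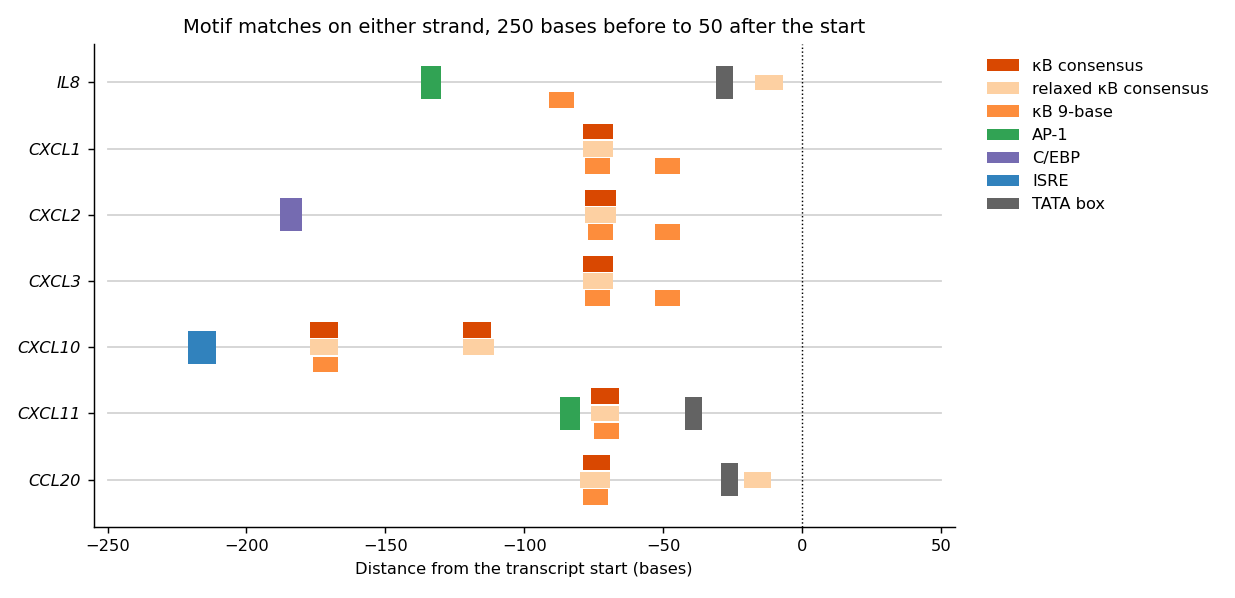
Motif matches in the RefSeq promoter entries of 7 chemokine genes, plotted by distance from the transcript start in bases (250 before to 50 after), with 1 line per gene and 1 colour per motif on either strand. CXCL1, CXCL2 and CXCL3 share the pair of κB positions near −79 and −53, and CXCL10 has its κB matches farther upstream, from −177 and −122.

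Untreated cells held few chemokine reads. In the 3 untreated WT samples, raw counts were 0, 2 and 0 for IL8, 0, 3 and 3 for CXCL1, 1, 1 and 1 for CXCL2, and 0, 0 and 0 for CXCL10. CXCL3 stood above these, with 7, 13 and 11 counts in untreated WT samples and 5, 8 and 12 in untreated NFKB1 S80A samples. CXCL11, CCL2 and CCL20 had 0 counts in all 3 untreated WT samples, and CX3CL1 had 1, 1 and 0. A count of 0 in 1 sample allows up to 3 counts, or 0.14 to 0.194 CPM (on the TMM-scaled library size) over these libraries. Counting intervals and this limit cover counting error only.

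**Figure D2:**
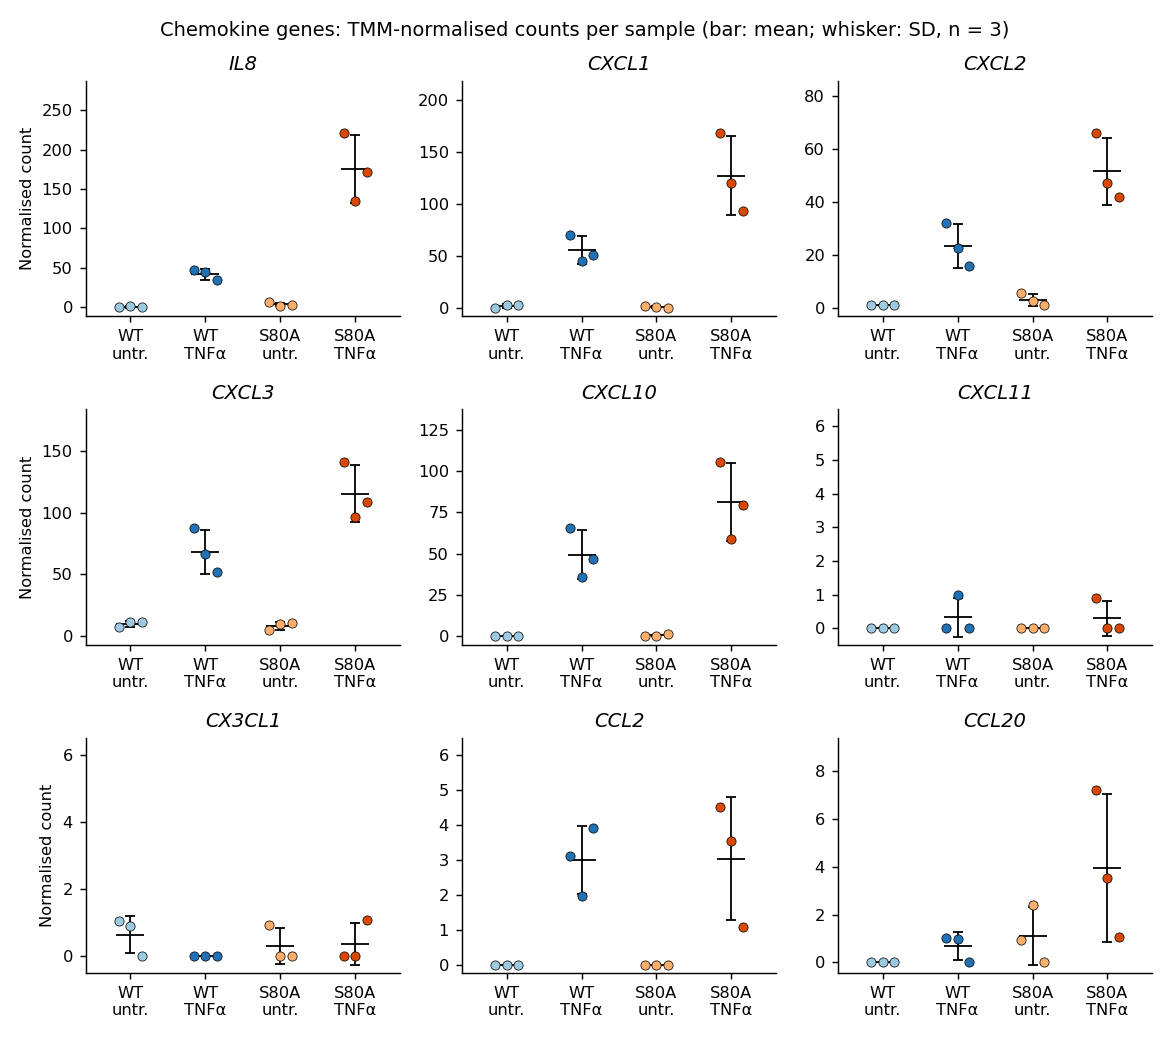
TMM-normalised counts of the 9 chemokine genes in each of the 12 samples (points), with the mean (bar) and SD (whisker, n = 3) of each group; the vertical scale differs between genes. The 5 genes IL8, CXCL1, CXCL2, CXCL3 and CXCL10 sit near the bottom of their panels without TNFα and stand well above it with TNFα, while the other 4 genes never pass 7.23 normalised counts.

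TNFα raised IL8, CXCL1, CXCL2, CXCL3 and CXCL10 in both genotypes. IL8, the main neutrophil attractant of the family, had 46, 45 and 35 raw counts in the treated WT samples and 244, 114 and 160 in the treated NFKB1 S80A samples, where the untreated samples had at most 2 and 7 counts. The treated samples of each genotype lay above all its untreated samples. From 2 to 126 counts summed over 3 samples, the ratio in WT cells was 64.2 (95% counting interval 17.4 to 536), and from 13 to 518 counts the ratio in NFKB1 S80A cells was 42.3 (24.5 to 79.99). Both untreated WT counts came from replicate 2, and without it the untreated WT group is at 0 and the edgeR log2 fold change goes from 5.76 to 8.38, a value that then depends on the prior count.

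CXCL1, another ligand of CXCR2, had 68, 46 and 52 raw counts in treated WT samples and 186, 102 and 87 in treated NFKB1 S80A samples. Its untreated counts were at most 3 in any sample, so treated and untreated samples did not overlap. The ratio to untreated cells was 28.2 (12.7 to 77.9) in WT cells and 133 (45.1 to 646) in NFKB1 S80A cells, the latter against 3 counts in all.

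CXCL2, the closely related neutrophil attractant, was the least counted of the 4, with 31, 23 and 16 raw counts in treated WT samples and 73, 40 and 39 in treated NFKB1 S80A samples. Untreated samples held 1, 1 and 1 counts in WT and 6, 2 and 1 in NFKB1 S80A cells, again below every treated sample. The ratio was 23.8 (7.81 to 118) in WT cells, against 3 counts, and 17.9 (9.20 to 40.0) in NFKB1 S80A cells, against 9.

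CXCL3, the third of the closely related trio, rose from the highest starting count of the 5 and by the smallest ratio in both genotypes, although its counting intervals overlap those of CXCL2. Its raw counts after TNFα were 84, 67 and 53 in WT samples and 156, 82 and 101 in NFKB1 S80A samples, all above the untreated values given before. The ratio was 6.70 (4.58 to 10.1) in WT cells and 14.4 (9.58 to 22.6) in NFKB1 S80A cells. As log2 fold changes these were 2.74 (SE 0.30) and 3.81 (SE 0.30). CXCL1, CXCL2 and CXCL3 can share reads: of the 75-base windows of their transcripts, 0.273%, 2.50% and 2.30% occurred in another chemokine transcript, against 0 of 1568 windows for IL8, and how such reads were counted is not given in the sources used here.

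CXCL10, a T cell attractant also known as an interferon-inducible gene, had 63, 36 and 48 raw counts in treated WT samples and 117, 50 and 74 in treated NFKB1 S80A samples. Its untreated samples held 1 count among all 6. The rise was at least 49.9-fold in WT cells, where the untreated group was at 0 and was set to 3 counts over the group. In NFKB1 S80A cells the ratio was 256 (45.5 to 10147), against a single count.

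All these rises passed the quasi-likelihood test of edgeR after Benjamini-Hochberg adjustment. The adjusted p ran from 4.63e-05 (IL8) to 0.00088 (CXCL2) in WT cells and from 3.19e-07 (IL8) to 5.73e-05 (CXCL2) in NFKB1 S80A cells, and DESeq2 called the same 5. Of all 14383 genes tested, 0.577% (WT) and 0.966% (NFKB1 S80A) were called higher with TNFα. Of these, IL8, CXCL1, CXCL2 and CXCL10 entered the test through their treated samples, since their untreated counts were too low to pass the filter. CXCL3, with up to 13 counts in an untreated sample, did not depend on its treated samples to pass. That all 5 rose thus follows in part from which members could be tested and is not support. The median log2 fold change of the 5 was 4.74 in WT and 5.34 in NFKB1 S80A cells, against -5.17e-05 and -0.00188 for all genes tested.

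The remaining 4 members did not pass the filter of the test and hold few reads. CCL2 had 0 counts in all 6 untreated samples, 3, 2 and 4 in treated WT samples and 5, 3 and 1 in treated NFKB1 S80A samples. Every treated sample thus lay above every untreated one in both genotypes, at least 3.06-fold in WT and 3.18-fold in NFKB1 S80A cells against 3 counts over the group, with a two-sided exact permutation p of 0.1 in each, the smallest that 3 samples against 3 can give. CCL2 makes 6 of the 9 members whose treated samples all exceeded the untreated ones in each genotype, while 6.07% of the genes tested did so in WT and 6.81% in NFKB1 S80A cells. In a fit without the filter, CCL2 had an adjusted p of 0.373 in WT and 0.205 in NFKB1 S80A cells (edgeR's quasi-likelihood test, Benjamini-Hochberg).

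CCL20, the ligand of CCR6, had 1, 1 and 0 raw counts in treated WT samples and 8, 3 and 1 in treated NFKB1 S80A samples, and 0, 0, 0 and 1, 2, 0 in the untreated ones. Treated and untreated samples overlapped in both genotypes, and from 3 to 12 counts the ratio in NFKB1 S80A cells was 4.25 (95% counting interval 1.15 to 23.5; two-sided exact permutation p = 0.2). CXCL11 had 1 count in the treated WT samples and 1 in the treated NFKB1 S80A samples, and 0 elsewhere. CX3CL1 had 4 counts in the 12 samples, 3 of them in untreated cells. A change of either gene was not detectable at this depth, although CXCL11 carries the κB match that CXCL10 also has.

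TNFα-treated NFKB1 S80A cells held more reads of several chemokine genes than treated WT cells, and of the 5 tested IL8 had the largest fold change. Its normalised counts were 47.7, 44.4 and 34.3 in WT samples (mean 42.1 ± 7.03 SD, n = 3) and 221, 134.5 and 172 in NFKB1 S80A samples (176 ± 43.2 SD, n = 3). The lowest NFKB1 S80A sample exceeded the highest WT sample by a wide margin. The log2 fold change was 2.06 (SE 0.24, 95% interval 1.56 to 2.57), or 4.18-fold, with an adjusted p of 0.000136 by edgeR's quasi-likelihood test. It was called in each of the 12 fits that left out 1 sample, with log2 fold changes of 1.86 to 2.22.

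CXCL1 had normalised counts of 70.6, 45.4 and 50.9 in treated WT samples (55.6 ± 13.2 SD, n = 3) and 168, 120.3 and 93.4 in treated NFKB1 S80A samples (127 ± 37.9 SD, n = 3). The groups did not overlap. The log2 fold change was 1.20 (SE 0.26, interval 0.64 to 1.77), with an edgeR adjusted p of 0.0141. Without WT treated replicate 2 the edgeR adjusted p was 0.0849, and without NFKB1 S80A treated replicate 1 it was 0.0789.

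CXCL2 had normalised counts of 32.2, 22.7 and 15.7 in treated WT samples (23.5 ± 8.29 SD, n = 3) and 66.0, 47.2 and 41.9 in treated NFKB1 S80A samples (51.7 ± 12.7 SD, n = 3). Here too all NFKB1 S80A samples were higher. The log2 fold change was 1.15 (SE 0.29, interval 0.52 to 1.77), with an edgeR adjusted p of 0.0297. The adjusted p of the edgeR fit was 0.112 without WT treated replicate 2, 0.0761 without WT treated replicate 3, 0.132 without NFKB1 S80A treated replicate 1 and 0.0579 without NFKB1 S80A treated replicate 2.

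CXCL3 had normalised counts of 87.2, 66.2 and 51.9 in treated WT samples (68.4 ± 17.8 SD, n = 3) and 141, 96.7 and 108 in treated NFKB1 S80A samples (115 ± 22.97 SD, n = 3). The groups did not overlap, but the lowest NFKB1 S80A sample was close to the highest WT sample. The log2 fold change was 0.76 (SE 0.22, interval 0.30 to 1.23) and passed the threshold narrowly, with an edgeR adjusted p of 0.0466. The call held in 3 of the 12 fits with 1 sample left out. The edgeR adjusted p was 0.158 and 0.119 without WT treated replicates 2 and 3, and 0.192, 0.0572 and 0.0803 without NFKB1 S80A treated replicates 1, 2 and 3. It was 0.0552, 0.0663 and 0.065 without WT untreated replicates 1, 2 and 3, which are not part of the comparison but share its estimate of the spread, and 0.0581 without NFKB1 S80A untreated replicate 3.

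CXCL10 had normalised counts of 65.4, 35.6 and 47.0 in treated WT samples (49.3 ± 15.1 SD, n = 3) and 106, 59.0 and 79.4 in treated NFKB1 S80A samples (81.4 ± 23.5 SD, n = 3). The groups overlapped, as the highest WT sample lay above the lowest NFKB1 S80A sample. The log2 fold change was 0.74 (SE 0.27, interval 0.16 to 1.32) and did not pass the test, with an edgeR adjusted p of 0.122. Its size was close to that of CXCL3, and the interval of CXCL10 spans that of CXCL3. With the replicate number added to the model as a block, the edgeR adjusted p of CXCL10 was 0.0312. The numbers were not taken to pair the samples, for the reason given in the last section.

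**Figure D3:**
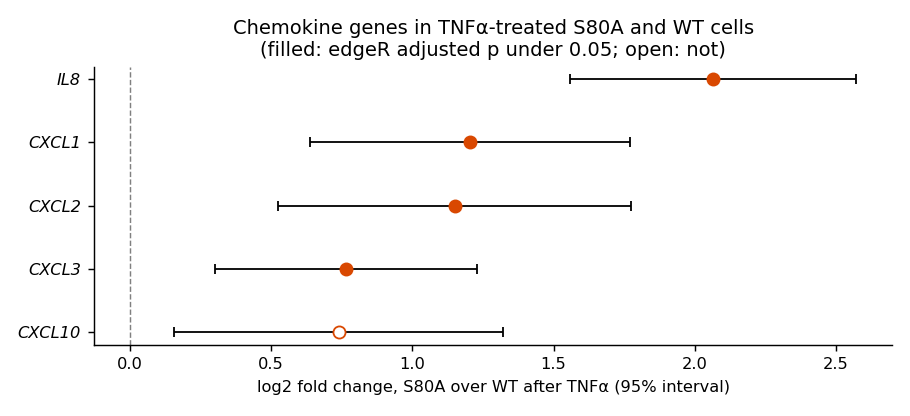
log2 fold change of NFKB1 S80A over WT cells after TNFα for the 5 chemokine genes tested (points; filled where the edgeR adjusted p is under 0.05, open where not), with 95% intervals. In this fit, without a replicate block, all 5 lie above 0, IL8 at 2.06 is the highest, and CXCL10 at 0.74 is the only open point.

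In all, edgeR and DESeq2 each called 4 of the 5 members tested higher in NFKB1 S80A cells after TNFα, and 2.92% of all genes tested were. The median log2 fold change of the 5 was 1.15, and that of all genes tested was -0.00366. Of all 9 members, 5 had every treated NFKB1 S80A sample above every treated WT sample, as 13% of genes tested did. The fifth was CCL20, with 12 counts against 2 and a ratio of 6.23 (95% counting interval 1.39 to 57.3; two-sided exact permutation p = 0.1, the smallest possible). Its groups separate only after scaling, since the lowest NFKB1 S80A sample and the highest WT samples had 1 raw count each (1.07 against 1.04 normalised), and in the edgeR fit without the filter its adjusted p was 0.228. CCL2 had 9 counts in each group, and its ratio of 1.04 has a counting interval of 0.365 to 2.95. This comparison and the TNFα response in NFKB1 S80A cells share the treated NFKB1 S80A samples.

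Treated replicate 1 had the highest normalised count of its group for all 5 genes in both genotypes. The highest sample exceeded the lowest 1.39 to 2.05 times in WT and 1.46 to 1.80 times in NFKB1 S80A cells. Among the 134 other genes called higher with TNFα in NFKB1 S80A cells, replicate 1 held the highest value for 40.3% in WT and 63.4% in NFKB1 S80A cells. There the median gene stood at 1.01 and 1.07 times its group mean. These genes were picked by a test that used the same treated NFKB1 S80A samples. What sets treated replicate 1 apart was not tested. The values without it are given beside each call that it changed.

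The chemokine reads were also compared as shares of the summed count of the 5 genes, which are tied to each other, so that a higher share of one gene lowers those of the others. IL8 made up 17.9% ± 2.57 (SD, n = 3) of the summed normalised count of the 5 genes in treated WT samples, from 15.8% to 20.7%, and 31.8% ± 2.69 (SD, n = 3) in treated NFKB1 S80A samples, from 29.4% to 34.7%. CXCL3 made up 28.5% ± 2.46 and 21.05% ± 0.906 (SD, n = 3), and CXCL10 20.6% ± 3.58 and 14.7% ± 1.62 (SD, n = 3). For each of these 3 genes the genotypes did not overlap. The shares of CXCL1 (23.3% ± 2.15 and 23.04% ± 3.79) and CXCL2 (9.69% ± 1.60 and 9.39% ± 0.925) overlapped. The sum itself was 239 ± 56.0 (SD, n = 3) normalised counts in treated WT and 551 ± 131 in treated NFKB1 S80A samples, from 13.6 ± 4.65 and 16.6 ± 1.68 without TNFα.

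**Figure D4:**
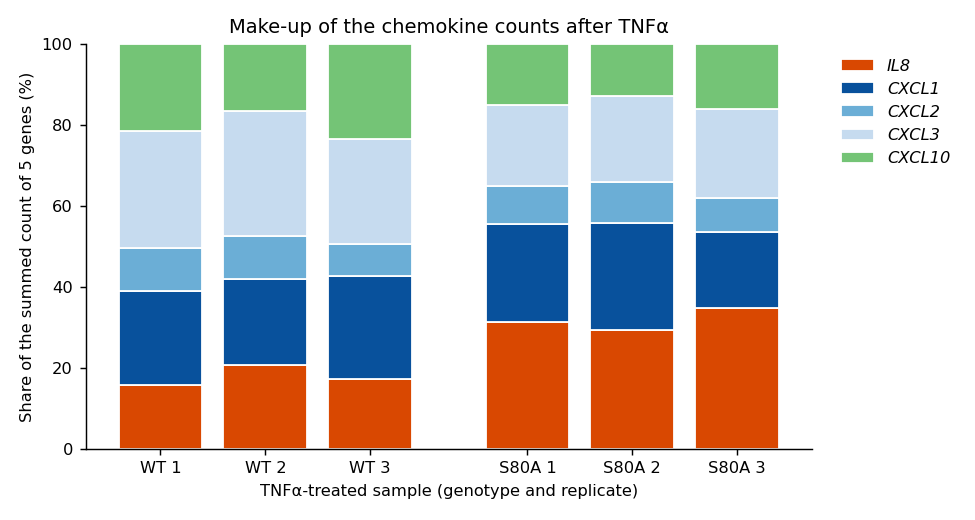
Share of each of 5 chemokine genes, in percent of their summed count, in each treated sample (3 WT bars and 3 NFKB1 S80A bars, by replicate number; counts are not divided by transcript length). The IL8 segment takes 15.8% to 20.7% of the WT bars and 29.4% to 34.7% of the NFKB1 S80A bars.

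Ratios within a sample do not depend on library scaling, and 10 pairs of genes were compared. The log2 ratio of IL8 to each of the other 4 genes was higher in every treated NFKB1 S80A sample than in every treated WT sample, by 0.87 over CXCL1, 0.87 over CXCL2, 1.28 over CXCL3 and 1.32 over CXCL10. Those 4 ratios share the IL8 counts, which also enter the shares above, and are not 4 separate results. The ratio of CXCL2 to CXCL3 also did not overlap and was higher by 0.40 in NFKB1 S80A cells. Each of these 5 pairs had a two-sided exact permutation p of 0.1, the smallest possible, and 0.2 after Benjamini-Hochberg adjustment over the 10 pairs. The other 5 pairs overlapped, and for CXCL1 over CXCL2 the difference was 0.0079 on the log2 scale.

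Levels of different genes were compared as RPKM, computed over the canonical transcript (GENCODE release 44). In treated WT cells the order was CXCL3 (3.43 ± 0.891), CXCL1 (2.56 ± 0.608), CXCL10 (2.26 ± 0.691), IL8 (1.38 ± 0.231) and CXCL2 (1.14 ± 0.401 SD, n = 3). Of the neighbours in that order, CXCL10 and IL8 did not overlap and the others did. In treated NFKB1 S80A cells the order was CXCL1 (5.85 ± 1.74), CXCL3 (5.79 ± 1.15), IL8 (5.77 ± 1.42), CXCL10 (3.74 ± 1.08) and CXCL2 (2.50 ± 0.614 SD, n = 3), with overlap between all neighbours. The place of IL8 and CXCL3 depends on the transcript: over the length of all their exons IL8 had 0.878 in WT and 3.66 in NFKB1 S80A cells, and CXCL3 1.66 and 2.80.

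**Figure D5:**
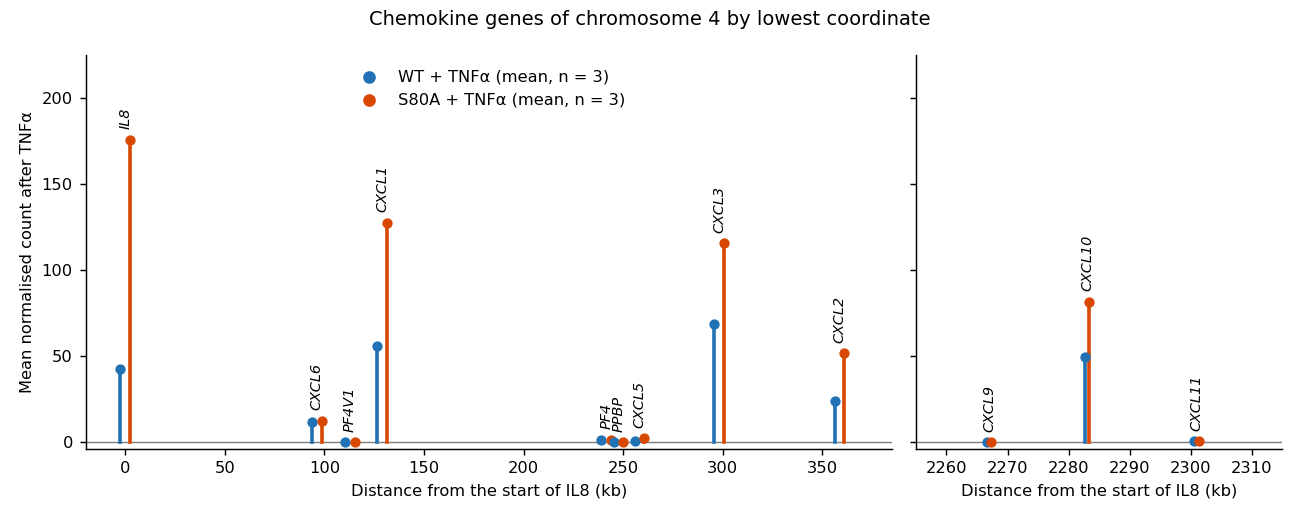
Mean normalised count after TNFα (WT in blue, NFKB1 S80A in orange, n = 3 each, drawn side by side) of the chemokine ligand genes of chromosome 4 by distance of their lowest coordinate from that of IL8 in kb; CXCL13 lies beyond the panels, and heights of different genes are not adjusted for length. IL8, CXCL1, CXCL3, CXCL2 and CXCL10 stand up among neighbours at or near 0, and CXCL6 reaches 11.8 (WT) and 12.3 (NFKB1 S80A).

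Most other chemokine ligand genes of chromosome 4 had few reads. Of the 7 other chemokine ligand genes of the chromosome, 6 had at most 3 counts in every sample (PF4V1, PF4, PPBP, CXCL5, CXCL9 and CXCL13). The exception was CXCL6, a neutrophil attractant between IL8 and CXCL1, with means of 2.32 and 11.8 normalised counts in untreated and treated WT cells and 1.78 and 12.3 in NFKB1 S80A cells. With TNFα it was called in NFKB1 S80A cells (log2 fold change 2.80, SE 0.60, edgeR adjusted p = 0.0321) and not in WT cells (2.29, SE 0.56, edgeR adjusted p = 0.109), and the interaction was 0.51 (SE 0.92, edgeR adjusted p = 0.943). Between the genotypes after TNFα its log2 fold change was 0.06 (SE 0.41, edgeR adjusted p = 0.958).

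Without TNFα, none of the 5 members tested was called between the genotypes, and 1 had an unadjusted edgeR p under 0.05, as 19.7% of all genes tested did. DESeq2 called 0 of the 5 as well. The gene under 0.05 was IL8, with 7, 2 and 4 raw counts in untreated NFKB1 S80A samples and 0, 2 and 0 in untreated WT samples. After scaling, its NFKB1 S80A samples lay above all WT samples, and IL8 was the single member of 9 to do so, as 11.7% of genes tested did. The ratio, from 2 to 13 counts, was 6.48 (95% counting interval 1.47 to 59.1), and the edgeR adjusted p was 0.141. Without WT untreated replicate 2, which leaves the WT group at 0, the edgeR log2 fold change went from 2.48 to 5.11, and IL8 was not called in any of the 12 fits with a sample left out, where the adjusted p was 0.0976 at lowest. CXCL2 had 9 counts against 3, a ratio of 2.99 (0.746 to 17.2), and CXCL3 had 25 against 31, a ratio of 0.804 (0.455 to 1.41). Of all genes tested, 2.05% were called higher in untreated NFKB1 S80A cells.

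Whether TNFα acted more strongly in one genotype was tested as the interaction of genotype and TNFα. It was called for none of the 5 members, nor for any of the 14383 genes, by edgeR or by DESeq2. At an unadjusted edgeR p under 0.05 stood 1 of the 5 and 3.62% of all genes. That member was CXCL3, whose log2 response was 1.07 higher in NFKB1 S80A cells (SE 0.48, 95% interval 0.04 to 2.10, edgeR adjusted p = 0.911). DESeq2 put CXCL1 and CXCL3 under 0.05 before adjustment. For IL8 the interaction was -0.42 (SE 0.78, interval -2.10 to 1.26), where the untreated groups held 2 and 13 counts. It moved to -3.05 without WT untreated replicate 2, which held both of the WT counts, and turned to 0.05 without WT untreated replicate 1 or NFKB1 S80A untreated replicate 1 and to 0.06 without WT untreated replicate 3. The untreated groups of IL8, CXCL1, CXCL2 and CXCL10 held 0 to 13 counts each, which limits this test for them.

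The rest of the chemokine ligands had few reads in these cells. Of the 39 other ligand genes in the table, 21 were at 0 in all samples, 34 had at most 3 counts in every sample, and 3 could be tested. Means here and in the lists that follow are over 3 samples per group. CXCL12, a broadly made ligand of CXCR4, was higher in NFKB1 S80A cells, at 177 against 76.7 mean normalised counts untreated and 128 against 63.2 treated (log2 fold changes 1.21, SE 0.19, and 1.01, SE 0.20; edgeR adjusted p = 0.00186 and 0.00747). CXCL16, a membrane-bound ligand, was lower in NFKB1 S80A cells, at 88.7 against 164 untreated and 89.7 against 166 treated (-0.89 and -0.90, SE 0.14 each; edgeR adjusted p = 0.00202 and 0.00216). Neither was called with TNFα in either genotype. The median log2 fold change of the 3, CXCL6 included, was 0.02 in WT and 0.01 in NFKB1 S80A cells with TNFα, and 0.06 between the genotypes after TNFα.

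Of 23 chemokine receptor genes, 7 were at 0 in all samples and 3 could be tested. CXCR3, the receptor of CXCL10 and CXCL11, was at 0 throughout, and CXCR1 and CXCR2, the receptors of IL8, had at most 1 count in any sample. CXCR4, CCR6 and CCR10 were called in none of the 5 comparisons by edgeR or DESeq2. Between the genotypes after TNFα, 1 of the 3 had an unadjusted edgeR p under 0.05, CXCR4 with 161 against 122 mean normalised counts (edgeR adjusted p = 0.108). In the other comparisons none did. The share of all genes under 0.05 was not counted for that comparison, and it was 19.7% between the untreated genotypes.

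Several genes of the path from the TNF receptor to NF-κB rose with TNFα alongside the chemokines. All 23 of the list were tested, and 5 rose in WT and 9 in NFKB1 S80A cells, while 0.577% and 0.966% of all genes tested rose. The list medians were 0.17 and 0.23 on the log2 scale. RELB, an NF-κB subunit, went from 23.7 to 840.2 mean normalised counts in WT and from 27.9 to 1245 in NFKB1 S80A cells (log2 fold changes 5.15 and 5.47). NFKBIA, which encodes IκBα, went from 438 to 5035 and from 522 to 6609 (3.52 and 3.66), and TNFAIP3, which encodes the feedback inhibitor A20, from 109.7 to 966 and from 106 to 1550.0 (3.14 and 3.86). NFKB2 and NFKB1 rose as well, by 2.16 and 1.27 on the log2 scale in WT and 2.25 and 1.56 in NFKB1 S80A cells. Their SEs were 0.09 to 0.15, and each had an edgeR adjusted p of at most 4.99e-06. The interaction was called for 0 of the 23 by edgeR and DESeq2. An unadjusted edgeR p under 0.05 was found for 1 of the 23 and for 3.62% of all genes tested.

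Between the genotypes after TNFα, edgeR called 3 of the 23 higher and 1 lower, while of all genes tested 2.92% were higher and 4.44% lower. DESeq2 called 6 of the 23. The 3 were RELB (log2 fold change 0.57, SE 0.10, edgeR adjusted p = 0.00401), NFKBIA (0.39, SE 0.09, edgeR adjusted p = 0.0128) and TNFAIP3 (0.68, SE 0.12, edgeR adjusted p = 0.00422). Their values lie below the interval of IL8, 1.56 to 2.57, but inside those of CXCL3, 0.30 to 1.23, and CXCL10, 0.16 to 1.32. The values of RELB and TNFAIP3 also lie inside the interval of CXCL2, 0.52 to 1.77, and that of TNFAIP3 inside the interval of CXCL1, 0.64 to 1.77. The gene that was lower was CHUK, which encodes the kinase IKKα (-0.35, edgeR adjusted p = 0.046) and was named after its value was seen. The NFKB1 and RELA genes, which encode p50 and its usual partner, were not called, at 0.22 (SE 0.10, edgeR adjusted p = 0.198) and 0.03 (SE 0.08, edgeR adjusted p = 0.87). Without TNFα, edgeR and DESeq2 called 0 of the 23. An unadjusted edgeR p under 0.05 was found for 4 of the 23 and for 19.7% of all genes tested. The median of the 23 after TNFα was 0.09 between the genotypes.

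Interferons also induce CXCL10 and CXCL11. The 6 interferon genes examined, IFNA1, IFNB1, IFNG, IFNL1, IFNL2 and IFNL3, were at 0 in all 12 samples. Of 20 interferon and response genes in the table, 8 could be tested, and with TNFα 1 rose and 1 fell in each genotype. Of all genes tested, 0.577% rose in WT and 0.966% in NFKB1 S80A cells. IRF1, a transcription factor of the interferon response and a known NF-κB target, rose from 121 to 376 mean normalised counts in WT and from 117 to 468 in NFKB1 S80A cells (log2 fold changes 1.63 and 2.00, SE 0.14 each; edgeR adjusted p = 1.17e-05 and 8.26e-07). IFIT1, an interferon-induced antiviral gene, fell from 122 to 69.1 and from 58.1 to 34.5 (-0.83, SE 0.13, and -0.76, SE 0.16; edgeR adjusted p = 0.00538 and 0.0256).

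After TNFα, 1 of these 8 was higher and 2 were lower in NFKB1 S80A than in WT cells, while of all genes tested 2.92% were higher and 4.44% lower. ISG15 was higher, at 62.8 against 37.6 mean normalised counts (log2 fold change 0.73, SE 0.20, edgeR adjusted p = 0.038). IFIT1 (-1.005, SE 0.15, edgeR adjusted p = 0.00154) and IRF7 (1.86 against 25.3, -3.54, SE 0.56, edgeR adjusted p = 0.00198) were lower, and both were lower without TNFα too. The median log2 fold change of the 8 between the genotypes after TNFα was 0.08.

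Over the 12 samples the genes whose log2 CPM followed the mean profile of the 5 chemokines most closely were JUNB (Pearson r = 0.994), SDC4 (0.994), TNF (0.99), EFNA1 (0.99), CD83 (0.99), TNFAIP3 (0.989), NFKBIA (0.989) and NFKB2 (0.989). These are descriptions over 12 samples that fall into treated and untreated sets, with the same libraries on both axes, so that any gene raised strongly by TNFα scores high. Between the genotypes after TNFα, TNF itself had 56.4 against 19.5 mean normalised counts (log2 fold change 1.54, edgeR adjusted p = 0.00789), and EFNA1, which encodes an ephrin ligand, 620 against 335 (0.89, edgeR adjusted p = 0.00248). JUNB, an AP-1 subunit, differed by 0.60 (edgeR adjusted p = 0.00447) and SDC4, which encodes syndecan-4, by 0.41 (edgeR adjusted p = 0.033). CD83 (0.28, edgeR adjusted p = 0.0773) and NFKB2 (0.25, edgeR adjusted p = 0.0734) were not called.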

How the data were processed

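RNA from 12 samples was sequenced as single-end 75-base reads on a NextSeq 500 after stranded poly(A) library preparation. The authors deposited raw counts of reads per gene symbol, made by alignment to GRCh38 with HISAT and counting with HTSeq. Submitters' processing notes also name FastQC, StringTie and DESeq2; versions and counting options, strand included, are not given in the sources used here. The authors' lists of changed genes hold their fold changes, p-values and normalised values and were not used.

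Of 33121 rows, 28 whose symbols had become dates (at most 0.233% of counts) were dropped. Genes passing filterByExpr (minimum count 10; 14383) were TMM-scaled and fitted in edgeR 4.0.16 (R 4.3.3) by 1 quasi-likelihood model with a mean per group; p-values were Benjamini-Hochberg adjusted over all of them, with a threshold of 0.05. The SE is the log2 fold change over the square root of F. P-values measure the spread between these samples. Members outside the filter were compared by two-sided exact permutation of normalised counts. Count ratios carry exact binomial intervals, adjusted for library size. Tested on simulated data for TNFα in WT cells (14383 genes, 200 changed), the fit found 96% of changes of 1 on the log2 scale and 100% of changes of 2, with 4.39% of calls false. The changed genes were drawn from those with a mean of at least 10 counts. The simulated spread depended on the mean count alone, without genotype or replicate effects. These rates were not tested for genes near 0 counts without TNFα, as most members are. Tables, promoter alignments (match 1, mismatch −1, gap opening −2, extension −0.5) and figures used Python 3.11.15, numpy 2.4.6, pandas 2.3.3, scipy 1.17.1, Biopython 1.88 and matplotlib 3.10.9. Columns were matched to samples by label.

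All members are named. From the lists of other ligands, receptors, TNF receptor to NF-κB genes and interferon genes, at most 5 called genes each with 10 or more counts in a sample were named by smallest adjusted p, with RELA and NFKB1, and 8 genes by likeness. PF4V1, PF4, PPBP, CXCL5, CXCL9, CXCL13, the receptors, the 6 interferons, CHUK and the markers were named after their values were seen or as whole lists. The summed level of the leukocyte marker list is not reported here. Members and lists were chosen with earlier results of these data known. Alternatives were no filter on low counts, a test in DESeq2 1.42.0, its size factors or total counts for scaling, 10 counts in every sample, the 6 samples compared, a replicate block, each sample left out, a prior count of 0.5, Spearman correlation and other κB patterns.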

Additional observations from a re-analysis of the deposited data

How the results depend on the processing

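The 5 chemokine genes tested kept their TNFα calls in both genotypes under every alternative that tested them and in all 12 fits that left out a sample, and 0 were called untreated or for the interaction. For NFKB1 S80A against WT cells after TNFα, 4 members were called, and 1 to 4 with a sample left out: 1 without treated WT replicate 2 or treated NFKB1 S80A replicate 1, and 2 without treated WT replicate 3 or treated NFKB1 S80A replicate 2. Over all genes, for TNFα in WT cells 99 genes were called by edgeR, 161 by DESeq2 and 64 to 145 with a sample left out. For TNFα in NFKB1 S80A cells 181 were called, 73 in the fit to the 6 samples compared and 98 to 191 with a sample left out. Between untreated genotypes 900 were called, 460 with the 6 samples compared and 356 to 1044 with a sample left out. Between treated genotypes 1058 were called, and 428 to 1642 with a sample left out. Fewer samples enter these fits, apart from that in DESeq2, and some of them called more genes than the main fit and others fewer. The cause was not tested. With the replicate number as a block, CXCL10 was called after TNFα (edgeR log2 fold change 0.72, adjusted p = 0.0312), which made 5 members in place of 4, and the block changed no other member's call. Over all genes the block gave 1469 calls between treated and 1232 between untreated genotypes. The numbers were not taken to pair the samples, since not every same-numbered pair had deviations correlated over 0.1: 9 of 18 did (mean 0.118), against 6 of 36 other pairs (mean −0.059). Of the 8 genes most like the chemokines, 5 stayed with a prior count of 0.5 and 1 with Spearman correlation. A filter of 10 counts in every sample keeps no member. Depth limits CXCL11, CX3CL1, CCL2 and CCL20, and every untreated level but that of CXCL3.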
